A study of Caenorhabditis elegans with 2 samples.

Results

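The grl (ground-like), grd (groundhog) and wrt (warthog) genes of Caenorhabditis elegans encode secreted proteins related to Hedgehog, and their transcripts were compared between worms grown with and without carbon nanotubes. Members were taken as every probe set assigned to 1 gene whose symbol starts with grl-, grd- or wrt-, a rule on names alone. This gave 58 of the 22548 worm probe sets and 52 of the 17118 gene symbols with a probe set of their own, namely 30 grl, 12 grd and 10 wrt genes. Both samples were whole worms of the wild-type strain N2, kept at 13 °C before the experiment, synchronised as hatched L1 larvae and cultured at 22 °C for 48 hr, and were labelled as L4, the final larval stage. The control worms received no nanotubes. The exposed worms were grown for those 48 hr with 500 μg/mL of a-SWCNT, amide single-walled carbon nanotubes, that is, tubes of carbon with a wall of 1 atomic layer. There was 1 array per group, so the values below have no replicate, no error between cultures and no p-value, and precision is limited by the number of arrays.

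Hedgehog is a secreted signal that in flies and vertebrates is cut and joined to cholesterol by its own C-terminal part, the Hog or Hint domain, and is received by Patched. The worm has no Hedgehog and no Smoothened, but it has an expanded set of proteins with cysteine-rich N-terminal domains called Wart, Ground and Ground-like, of which some carry a Hog domain and most do not. Many of them are made in the epidermis and in other epithelia that face a cuticle, and many are transcribed in a wave that returns with each larval moult. Loss of several of them, and of the Patched-related proteins, is known to disturb growth, moulting or the apical extracellular matrix.

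The deposited signals of the arrays were not at a common level. The trimmed mean of the control array was 211 and that of the a-SWCNT array 84.3, and the latter array was therefore multiplied by 2.50. All a-SWCNT signals given below are after this step, and every ratio is relative to the level of the average transcript. Signals of at least 56.7, the pooled median of worm signals after scaling, were called measured. This value also served as a floor: dimmer signals were raised to it, and the log2 of the a-SWCNT signal divided by the control signal was then computed. Each gene was given the average over its probe sets measured on either array. In all, 9382 genes had such a value, with a median of -0.02. Where 2 probe sets of a gene were measured on both arrays (1370 genes), their log2 ratios differed by a median of 0.43 and, at the 95th percentile, by 1.38, which is the only guide to error within the arrays.

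Of the 52 member genes, 34 were measured, 31 of them on both arrays, 1 on the control array only and 2 on the a-SWCNT array only. The measured members had a median log2 ratio of -0.22, with 23 below and 11 above 0, while 52.2% of all measured genes were below 0. No member was at least 2-fold higher (0 of 34, against 1.42% of all measured genes) and 5 were at least 2-fold lower (14.7%, against 2.88%): grd-7, wrt-7, grl-9, grd-1 and grl-20. At a log2 ratio of -0.5 or lower stood 14 members, a position held by 15.1% of all measured genes, and 2 members stood at 0.5 or higher, against 11.2%. The middle 50% of the members spanned 0.95 in log2, from -0.81 to 0.14, and that of all measured genes 0.59, from -0.33 to 0.26. The values of 18 members exceeded the median difference of 0.43 between probe sets of a gene, and only that of grd-7 exceeded its 95th percentile. The share of all measured genes past these differences is not given here, so the 2 counts do not set the members apart from other genes. With 1 array per group, neither the shift nor the wider spread could be tested.

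The subfamilies differed in where their genes lay. The median was -0.58 over 18 measured grl genes, 0.13 over 7 measured grd genes and -0.19 over 9 measured wrt genes. The grl median minus the grd median was -0.71, but each subfamily overlapped with the others, and the lowest member measured on both arrays was a grd gene. The grl genes fell into a group of 10 from -1.15 to -0.51 and a group of 8 from -0.10 to 0.54. No gene lay in the 0.41 between them, a gap smaller than the median difference of 0.43 between probe sets of a gene. The grd genes fell into 3 from -1.43 to -0.82 and 4 from 0.13 to 0.69, with a gap of 0.95. Among the wrt genes wrt-7 stood alone, 0.72 below the next, and the other 8 lay between -0.48 and 0.14. These groupings were described after the values were seen.

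**Figure D1:**
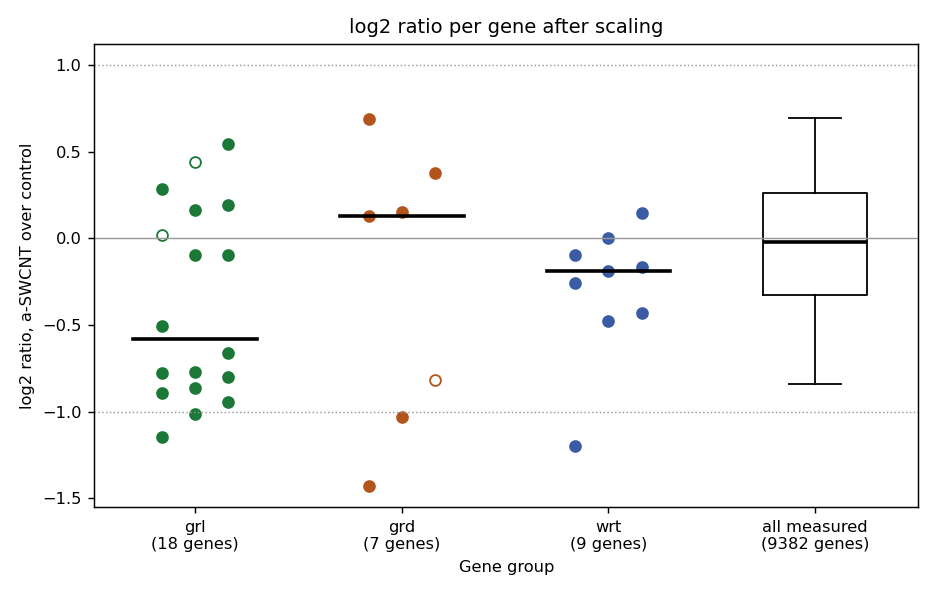
The log2 ratio per gene (a-SWCNT over control, vertical axis) is shown for each measured gene of the grl, grd and wrt subfamilies, with filled points for genes measured on both arrays, open points for those measured on 1 array only, and black bars for medians. The box gives the median and quartiles of all 9382 measured genes with whiskers at the 5th and 95th percentiles, dotted lines mark 2-fold, and the lower grl genes gather between -1.15 and -0.51.

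Ground-like genes carry the Ground-like domain and form the largest subfamily. The gene grl-9 had a signal of 1409 in control and 636 in exposed worms, 2.22-fold lower. Both probe sets of grl-20 were lower, from 6459 to 3552 in 1 and from 4984 to 2225 in the other, for a mean log2 ratio of -1.01. These 2 genes had the lowest ratios of the subfamily. Just short of 2-fold stood grl-23, with 5444 in control and 2826 in exposed worms (-0.95), and grl-3, with 953 and 513 (-0.89).

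The next ground-like genes were grl-22 with 307 in control and 169 in exposed worms (-0.87), and grl-19 with 832 and 479 (-0.80). The gene grl-25 had 3693 and 1805 in 1 probe set (-1.03) and 3885 and 2706 in the other (-0.52), which agree in direction and differ by 0.51, about as much as probe sets of a gene usually did. Signals of grl-17 were 1240 and 728 (-0.77) and those of grl-16 were 1489 and 943 (-0.66). The 2 probe sets of grl-7 gave nearly the same ratio, with 741 and 525 in 1 (-0.50) and 599 and 419 in the other (-0.51). All 3 grl genes with 2 measured probe sets were therefore lower in both. These 10 genes stayed below 0 in each of the 6 scalings tried other than the values as deposited.

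The remaining ground-like genes were level or higher on the a-SWCNT array. The highest of those measured on both arrays was grl-15, with 1179 in control and 1718 in exposed worms, 1.46-fold higher. The gene grl-21, known as a Hedgehog-like signal in the control of lipid stores, had 2550 and 3105 (0.28), and grl-5 had 1077 and 1232 (0.19). A dim probe set of grl-6 was below the floor in control worms (38.1) and above it in exposed worms (76.9), at least 1.36-fold higher. This bound is set by the floor, and with the floor at the 25th percentile the log2 ratio of grl-6 was 1.01, above those of grl-15 and grd-10. These 4 were above 0 in each of the 6 scalings. The direction of grl-4 (1282 and 1200, -0.10), grl-10 (366 and 342, -0.09), grl-12 (57.8 and 64.7, 0.16) and grl-1 (0.02, with the control signal just below the floor and an a-SWCNT signal of 57.5) depended on the scaling. Of 10 ground-like genes with a control signal of at least 1000, 7 were below and 3 above 0, with a median of -0.71, and of 8 with a lower signal 5 were below and 3 above 0, with a median of -0.30. That signal level was chosen after the values were seen, and since probe sets differ in their response, it does not order the genes by transcript level.

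**Figure D2:**
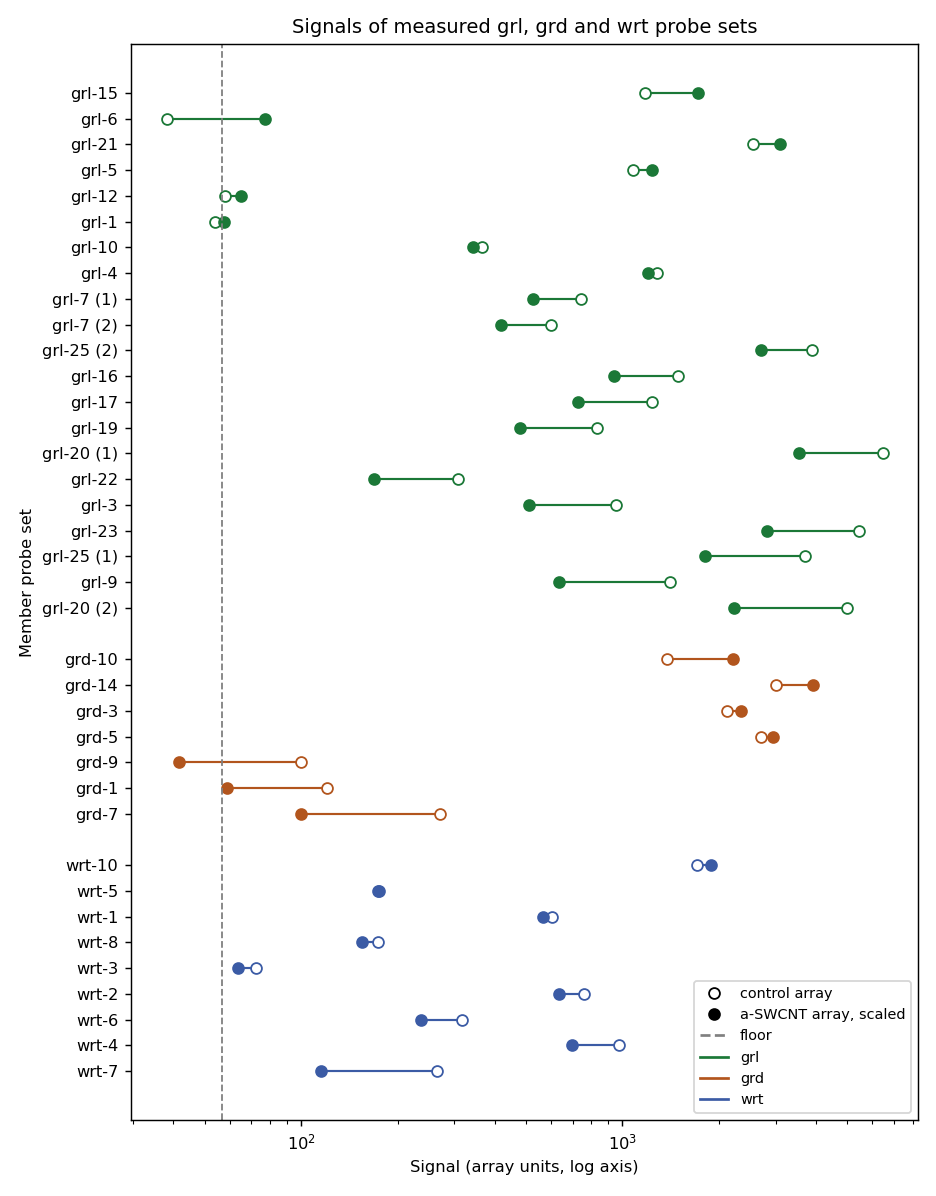
Signals in array units (log horizontal axis) are shown for each measured member probe set on the control array (open points) and the scaled a-SWCNT array (filled points), ordered within each subfamily by log2 ratio, with numbers in brackets for genes with more than 1 probe set. The dashed line is the floor of 56.7, and the filled point lies left of the open point for most grl and wrt probe sets and right of it for grd-10, grd-14, grd-3 and grd-5.

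Groundhog genes carry the Ground domain and split more widely than the other subfamilies. The lowest was grd-7, with 270 in control and 100.1 in exposed worms, 2.69-fold lower and the lowest value among members measured on both arrays. A Hog-domain member, grd-1, had 120 in control and 58.7 in exposed worms (2.04-fold lower), the latter close to the floor, while its second probe set did not reach the floor on either array (8.71 and 0.98). The gene grd-9 had 99.997 in control worms and 41.8 in exposed worms, below the floor, and was at least 1.76-fold lower. All 3 of these stayed below 0 in each of the 6 scalings.

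The other 4 measured groundhog genes lay above 0. Signals of grd-10, whose promoter is commonly used to mark the seam cells of the epidermis, were 1373 in control and 2211 in exposed worms, 1.61-fold higher and the highest value among members measured on both arrays. The gene grd-14 had 3012 and 3909 (0.38), and both it and grd-10 were above 0 in each of the 6 scalings. The genes grd-3 (2111 and 2342, 0.15) and grd-5 (2693 and 2948, 0.13) were nearly level, and their sign changed with equal hybridisation controls and, for grd-5, also under loess centring. All 4 groundhog genes with a control signal of at least 1000 were thus above 0 and all 3 below that level were below 0. Among all measured genes the corresponding medians were 0.09 for 1171 bright genes and -0.04 for 8211 others. Under loess centring, which removes a trend of the ratio with signal over all genes, the groundhog values were 0.57 for grd-10, 0.22 for grd-14, 0.02 for grd-3, -0.01 for grd-5, -0.73 for grd-9, -0.92 for grd-1 and -1.31 for grd-7. Loess centring follows the average trend over all genes, so it is not a test of signal level in these few genes. The part of signal level in the groundhog split was not tested.

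Warthog genes carry the Wart domain and were mostly a little lower on the a-SWCNT array, with 8 of 9 below 0. The exception in size was wrt-7, with 264 in control and 115 in exposed worms, 2.30-fold lower. Then came wrt-4 with 973 and 699 (-0.48), and wrt-6 with 318 and 236 (-0.43). The gene wrt-2, whose promoter is used as a marker of seam and epidermal cells, had 762 and 637 (-0.26). Values of wrt-3 (72.3 and 63.5, -0.19) and wrt-8 (173 and 154, -0.17) were within the usual difference between probe sets of a gene. The sign of the other 3 depended on the scaling, namely wrt-1 (604 and 564, -0.10), wrt-5 (174.1 and 174.0) and wrt-10 (1707 and 1886, 0.14), the highest warthog gene.

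Members known to carry a Hog domain are wrt-1, wrt-4, wrt-6, wrt-7, wrt-8, grd-1, grd-2 and grd-11, and 6 of these 8 were measured. Their median log2 ratio was -0.45, with 6 below 0 and wrt-7 and grd-1 at least 2-fold lower. The 28 measured members without the domain had a median of -0.14, with 17 below and 11 above 0. Of these, 3 were at least 2-fold lower, namely grd-7, grl-9 and grl-20. Of all measured genes, 52.2% were below 0 and 2.88% at least 2-fold lower. The grl genes, none of which is on the Hog-domain list, had a lower median of -0.58. The part of the domain in these values was not tested. The value of wrt-1 turned to 0.03 with equal 75th percentiles, so that 5 of the 6 were below 0 in all scalings. Within the warthog subfamily, the 5 measured genes with the domain had a median of -0.43 and the 4 without it -0.09, whose sign changed between scalings. A pair of Hog-domain genes outside these subfamilies was also lower: qua-1, which is needed for moulting, had 359 in control and 178 in exposed worms (2.02-fold), and hog-1 had 316 and 210 (-0.59).

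The other 18 members were below the floor on both arrays and have no ratio. They were 12 grl genes, 5 grd genes and wrt-9, with control signals from 2.47 to 55.2 and a-SWCNT signals from 1.43 to 37.3. Among them were grl-2, known from the excretory duct and pore and from glia (39.0 and 37.2), and grl-18, known from socket glia (5.36 and 26.9). Nothing can be said here of a change in either gene, and why their signals were dim was not tested. Measured members made up 60.0% of grl, 58.3% of grd and 90.0% of wrt genes, against 54.8% of all genes with a probe set of their own. The genes grd-4, grd-6, grd-13, grd-15 and grl-26 had no probe set of their own in the annotation and were not analysed here, and grl-32 was left out because its probe set is shared with other genes.

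Neighbouring members did not always share a ratio. By the gene order of the WBcel235 reference table, grl-28, grl-29, grl-30 and grl-31 lie together, with 1 other gene between the first and second of these, and grl-27 lies 5 genes further on. All 5 were below the floor on both arrays. Directly adjacent to the bright and lower grl-9 lies grl-8, which was below the floor on both arrays (28.0 and 6.16). The adjacent genes grd-3 (0.15) and grd-10 (0.69) were both above 0, and the adjacent wrt-1 (-0.10) and wrt-10 (0.14) were both nearly level. The genes wrt-7 (-1.20) and wrt-8 (-0.17), with 2 genes between them, differed by more than the usual difference between probe sets of a gene. Their difference was still below the 95th percentile of 1.38 for probe sets of a gene.

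The order of the subfamily medians was the same under all 6 scalings, with grl lowest, wrt next and grd highest, but it depended on other choices. With the floor at the 25th percentile, at which 11 grd genes were measured, the grd median was -0.23 and the wrt median -0.22, and with no floor they were -0.31 and -0.18. Without probe sets of letter suffix, the grl and wrt medians were both -0.43. The median of all measured genes moved from -0.18 with equal hybridisation controls to 0.09 with equal 75th percentiles, and was -1.16 in the values as deposited. Relative to it, the grl median differed by -0.65 to -0.55 and the wrt median by -0.17 to -0.14. The grd median differed by -0.03 to 0.17, and its own sign was negative in 2 scalings, loess centring (-0.01) and equal hybridisation controls (-0.04). The number of members at least 2-fold lower ranged from 3 to 8. Those below 2-fold with equal medians and equal 75th percentiles were grl-20 and grd-1, and grd-1 was so also after quantile normalisation and loess centring, while grd-7, grl-9 and wrt-7 were at least 2-fold lower in all 6. The signs of 19 members stayed below 0 and those of 6 above 0 in all 6 scalings, and 9 changed. Over these scalings the share of all measured genes below 0 ran from 41.1% to 66.6%. The share of all genes that kept their sign is not given here. Nor is the share at least 2-fold lower in scalings other than by trimmed means.

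**Figure D3:**
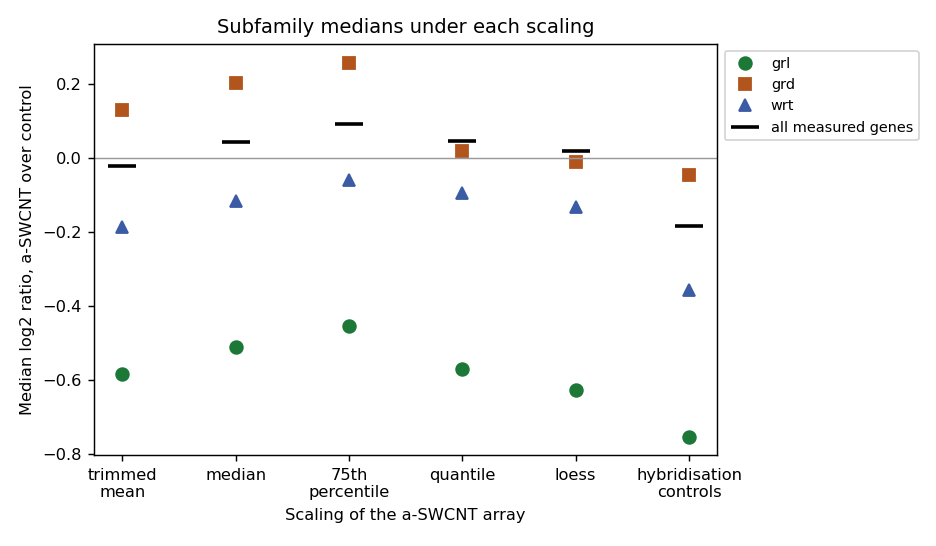
The median log2 ratio of a-SWCNT over control (vertical axis) is shown for measured grl (circles), grd (squares) and wrt (triangles) genes and for all measured genes (black bars) under 6 ways of scaling the a-SWCNT array. The grl median lies between -0.75 and -0.45 and is the lowest of the 3 subfamilies under each scaling.

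On the receiving side, the Patched homologues and the larger family of Patched-related proteins carry a sterol-sensing domain. The gene ptc-1, needed for divisions in the germline, had 320 in control and 174 in exposed worms (-0.88), while its second probe set did not reach the floor on either array, and ptc-3, an essential Patched homologue, had 526 and 466 (-0.17). Of 24 ptr genes, 18 were measured, with 10 above and 8 below 0, 0 at least 2-fold different in either direction, and a median of 0.05 whose sign changed with equal hybridisation controls. The highest was ptr-8 (387 and 580, 0.58). The lowest was ptr-3, with 108 in control and 46.0 in exposed worms (-0.93, a bound). The ptr median thus lay with that of all genes, and not with the grl genes, but the difference was not tested. Several ptr values rest on the probe set that is read: those of ptr-11 were -0.77 and 0.84, those of ptr-4 -0.89 and 0.23, and those of ptr-23 ran from -1.17 to 0.14. The gene ptr-24, a Patched-related gene, had 0.30.

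Further sterol-sensing domain proteins went both ways. The gene daf-6, itself Patched-related and known for shaping the channels that glia form around sensory endings, had 122 in control and 249 in exposed worms, 2.03-fold higher. The gene che-14, a homologue of Dispatched that acts in secretion at the apical side of epidermal cells, had 145 and 77.2 (-0.91). The Niemann-Pick C1 homologue ncr-1 had -0.34, and ncr-2 was below the floor on both arrays. For tra-1, the worm homologue of the Gli factors, which acts in sex determination, the probe sets disagreed (-2.25, 0.37 and 0.44, each a bound), and the gene mean of -0.48 is not a usable direction.

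**Figure D4:**
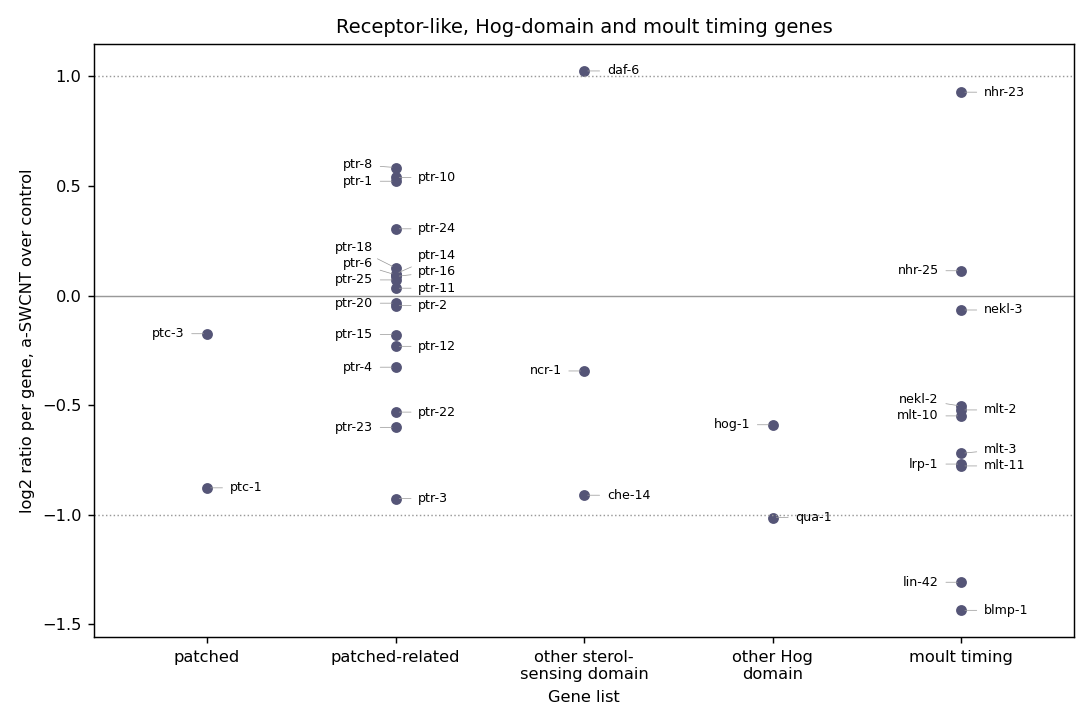
The log2 ratio per gene (a-SWCNT over control, vertical axis) is shown for each measured gene of the Patched, Patched-related, other sterol-sensing domain, other Hog-domain and moult timing lists, with 1 point per gene and dotted lines at 2-fold. The Patched-related genes lie on both sides of 0 between -0.93 and 0.58. The moult timing list also holds genes that carry out moulting, and 9 of its 11 measured genes lie below 0.

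Because many members are transcribed in step with the moult, genes that time or carry out moulting were set beside them. Of 12 such genes 11 were measured, 9 below and 2 above 0, with a median of -0.55 that lay between -0.72 and -0.45 over the 6 scalings. The zinc finger gene blmp-1 (405 and 150, 2.71-fold) and the period homologue lin-42 (143 and 57.6, 2.48-fold) were at least 2-fold lower. The a-SWCNT signal of lin-42 was close to the floor of 56.7. Of all measured genes, 52.2% were below 0 and 2.88% at least 2-fold lower. The nuclear receptor gene nhr-23, which drives the moulting programme, was higher (124 and 235, 0.93), and the receptor gene nhr-25 was nearly level (0.11). For each of blmp-1, lin-42, nhr-23 and nhr-25, a second probe set did not reach the floor on either array. The megalin homologue lrp-1 (-0.77), mlt-11 (-0.78, with probe sets from -1.21 to -0.05), mlt-3 (-0.72), mlt-10 (-0.55), mlt-2 (-0.52, a bound) and the kinase gene nekl-2 (-0.50) lay below 0 in all 6 scalings. The kinase gene nekl-3 was nearly level (-0.07, above 0 in 4 of the 6 scalings), and mlt-4 was below the floor on both arrays. Most of these genes lay below 0, as most measured grl genes did, and their part in the values of the members was not tested.

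Markers of the main tissues were checked against the label of whole worms, and all 13 were measured on both arrays. Epidermal markers were elt-3 (-0.74), lin-26 (-0.61) and dpy-7 (0.14, with a sign that changed with equal hybridisation controls), a median of -0.61 beside that of -0.58 for grl genes. In whole worms fewer cells of a type and less RNA per cell cannot be told apart. Outside the epidermis, the 3 markers of muscle and pharynx had a median of -1.03 and the 2 neuronal markers -0.31. The 2 intestinal markers had a median of 0.18, with a sign that changed with equal hybridisation controls. The germline markers gld-1 (-1.38) and glp-1 (0.26) lay far apart. The glial marker ptr-10, also counted among the ptr genes above, stood at 0.54, with a control signal of 60.3 close to the floor. The part of these markers in the values of the members was not tested.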

How the data were processed

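Per the labels' protocols, biotinylated cRNA was prepared from 6 μg of total RNA by the Affymetrix protocol, and each group had 1 array. The deposited values are linear signal intensities, 1 for each probe set. The submitters' processing notes name MAS5; its version, scaling target and detection calls are not given in the sources used here. The members, related gene lists and named-gene rule were chosen with earlier results of these data known.

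The a-SWCNT array was scaled to the control array by trimmed means (2% removed at each end). Signals below the floor, the median of pooled worm signals, were raised to it, and the log2 ratio was averaged over the measured probe sets of a gene. No test was run, because there was 1 array per group. Values on both arrays are given for members at least 2-fold different, the 4 highest and 4 lowest of each subfamily, and members with a described role; other measured members were added. Gene symbols came from the platform's annotation, and all 58 member probe sets matched the WBcel235 reference table by identifier. No genome build belongs to the annotation, so no coordinates are given. The steps were tested on simulated data. In the simulation only bright probe sets were changed, by larger folds than that of grd-7, so changes of the size seen in the members were not tried. Python 3.11.15, pandas 2.3.3, scipy 1.17.1 and statsmodels 0.14.6 (loess) were used. Alternatives were other scalings, floors, thresholds and choices of probe sets.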

Additional observations from a re-analysis of the deposited data

How the results depend on the processing

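No paired analysis was possible because each group had 1 array. Medians of the members and of each subfamily moved by less than 0.43 in log2, the usual difference between probe sets of a gene, under all alternatives except 2, but the sign of the grd median was not stable within that limit: it was -0.23 with the floor at the 25th percentile, -0.04 with hybridisation controls made equal and -0.01 under loess centring. In the values as deposited, which carry the difference in level between arrays, they were -1.42 for all measured members, -1.42 for grl, -1.17 for grd and -1.46 for wrt, and 28 members were at least 2-fold lower. With no floor, all 52 genes have a ratio and the grd median was -0.31, with 14 members at least 2-fold lower and 3 higher, most of them with signals below the floor. The count of 5 members at least 2-fold lower was 3 with equal medians or with equal 75th percentiles. It was 8 when hybridisation controls were made equal, 8 with the floor at the 25th percentile (where 1, grl-6, was higher), 2 with the floor at the 75th percentile and 3 without probe sets of letter suffix, which may bind several transcripts and are the only probe sets of grl-9 and grl-20. At 1.5-fold, 13 members were lower and 1 higher, and at 3-fold 0 were lower. Shares of all measured genes at these thresholds, and at 2-fold under the alternatives, are not given. These counts thus have no background to be read against. With the floor at the 75th percentile grd-7 (-0.45) and wrt-7 (-0.42) were below 2-fold, since the floor then lies above their a-SWCNT signals. Of 385 values of single members under 12 alternatives, 344 moved by less than 0.43 and 41 by more, 34 of these as deposited, and no member at least 2-fold different changed sign.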
